A study of Mus musculus with 3 samples.

Results

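The 10 genes described here, of 13891 genes measured, encode proteins that hold neighbouring cells of the gut lining together or seal the space between them. They are the tight junction genes Tjp1, Ocln, F11r, Cldn2, Cldn3, Cldn4, Cldn7 and Cldn15 and the adhesion genes Cdh1 and Epcam, and they were chosen by name because busulfan, a DNA alkylating drug given before marrow transplantation, injures the gut barrier. RNA was counted in single cells of the small intestine of male ICR mice, an outbred stock, that were 3 weeks old when treatment began. The AOS 0 mice received vehicle only. The B + A 0 mice received 1 injection of busulfan at 40 mg/kg and then vehicle, and the B + A 10 mice the same injection and then alginate oligosaccharides (AOS, short sugar chains cut from a seaweed polymer) at 10 mg/kg, given into the stomach for 2 weeks. Cells of 6 mice were combined in each group and gave 1 library. Every comparison between groups is therefore between 2 libraries, with no replicate check, and all intervals cover counting error only.

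The libraries held 12653 cells, and depth fell from AOS 0 through B + A 0 to B + A 10, with medians of 7371, 6407 and 3505 UMIs (unique molecular identifiers, which count each captured RNA molecule once) per cell. The groups were taken from the library titles, since for 2 libraries another label field named a different group. Clusters were found without the 10 genes and named from marker genes, and 11151 cells fell into 7 classes: stem-like, cycling-like, early, mature and ileal enterocyte-like, goblet-like and Paneth-like cells. In each class the summed level of its own markers was higher than in the other 6 in every library, with 4648 to 5633 against at most 2523 UMIs per 1000000 UMIs for the stem list. For the early enterocyte list it was 2217 to 2281 against at most 1582. In the early clusters led by Ms4a18 and Gsdmc2, 3 and 4 of its 7 markers were up 2-fold. Since the clusters were named from these lists, the margins are no separate check of the names. Of the rest, 314 cells were T cell-like, 154 enteroendocrine-like and 32 tuft-like, and 1002 (7.92%) stayed unnamed, most of them in clusters rich in called doublets. Of the 14 clusters in the 7 classes, 1 cycling-like cluster was led by Hba-a1, a hemoglobin gene of red blood cells. The goblet-like cluster led by Mptx1 also had Hba-a1 among its leading genes. The summed red blood cell list in cycling-like cells was 1.85 (AOS 0), 1.79 (B + A 0) and 181 (B + A 10) UMIs per 1000000. In goblet-like cells it was 1.30, 379 and 2.12 in the same order. Pairs of libraries shared 17, 34 and 31 cell barcodes.

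A tight junction is a belt near the top of each epithelial cell. Claudins span the membrane there and set what passes between cells: claudin-2 and claudin-15 form channels for small ions, while claudin-3 and claudin-4 are counted among the sealing claudins. Occludin (Ocln) and junctional adhesion molecule A (F11r) share the belt, and zonula occludens-1 (Tjp1) ties it to the actin skeleton. Below it, E-cadherin (Cdh1) forms the adherens junction, and EpCAM, which binds and stabilizes claudin-7, lies along the sides of the cell. In the gut, claudin-2 is known as a crypt claudin and claudin-15 for passing the sodium that nutrient uptake needs.

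Cldn2 and Cldn4 gave 4 of the 6 differences between classes described below, and Cldn3 is the neighbour of Cldn4 on chromosome 5, with 39279 bases between the genes. Their start regions are shown for that reason, as the 250 bases before the transcript start in the RefSeq annotation of GRCm38.p6, 5′ to 3′ on the strand of the gene. Capitals mark matches on either strand to TGANTCA, a site of the AP-1 factors, CAGGTG, an E-box bound by Snail family repressors, TTTATNG, a site of the intestinal factor Cdx2, CTTTGA, part of the site through which Wnt signals act, or TATAAA, the core element near many starts. No matches overlapped. The window of Cldn2 is chrX:139800558-139800807 on the + strand, that of Cldn3 chr5:134985964-134986213 on the + strand and that of Cldn4 chr5:134946935-134947184 on the - strand.
Cldn2: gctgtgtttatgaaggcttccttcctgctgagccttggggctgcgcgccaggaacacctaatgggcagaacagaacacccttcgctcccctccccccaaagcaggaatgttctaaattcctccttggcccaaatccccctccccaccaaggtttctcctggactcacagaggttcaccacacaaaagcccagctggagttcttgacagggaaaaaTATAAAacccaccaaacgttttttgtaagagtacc
Cldn3: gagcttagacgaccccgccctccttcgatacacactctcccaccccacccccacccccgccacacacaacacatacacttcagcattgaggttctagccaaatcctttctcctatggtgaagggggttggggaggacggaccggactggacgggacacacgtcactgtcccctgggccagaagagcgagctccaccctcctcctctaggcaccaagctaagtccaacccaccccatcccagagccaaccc
Cldn4: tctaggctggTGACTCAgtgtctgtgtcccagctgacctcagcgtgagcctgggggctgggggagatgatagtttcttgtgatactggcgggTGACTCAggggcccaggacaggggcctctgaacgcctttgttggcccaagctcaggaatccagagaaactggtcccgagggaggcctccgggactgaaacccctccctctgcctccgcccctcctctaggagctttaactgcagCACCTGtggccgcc

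The window of Cldn2 held 1 TATAAA, a motif found in 12.4% of the 32851 RefSeq windows of this length. Cldn4 held TGANTCA at 2 places, where 6.75% of all windows held it at least once, and 1 match to CAGGTG, which 17.2% of all windows held. In the window of Cldn3 none of the 5 motifs was found. Among the 11 windows of the 9 genes in the RefSeq table, TGANTCA was also found for F11r and Cldn15, CAGGTG for F11r, Cldn7, Ocln and Epcam, TTTATNG (9.81% of all windows) for Epcam, and CTTTGA (13.8%) for none. These are matches of letters, and binding was not measured.

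Cldn2 (GRCm38 chrX:139800828-139811386, + strand) was high in the crypt classes and again in ileal enterocyte-like cells. In stem-like cells AOS 0 gave a level of 155 UMIs per 1000000 UMIs, B + A 0 one of 135 and B + A 10 one of 151, from 302, 202 and 238 UMIs. Values are given in this order of libraries throughout. Cycling-like cells held 131, 139 and 150.4, and ileal enterocyte-like cells 128, 135 and 140.5. The ranges of these 3 classes overlapped and lay above those of the other 4. Early enterocyte-like cells were intermediate, with 64.9, 74.7 and 73.8 UMIs per 1000000, and mature enterocyte-like cells held 23.0, 38.8 and 33.0. Goblet-like cells were lowest, with 13.6, 18.3 and 19.4.

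A difference between classes was read where it reached 2-fold in the same direction in each of the 3 libraries and rested on at least 100 UMIs. By that rule Cldn2 was lower in mature enterocyte-like than in stem-like cells, by 6.72-, 3.46- and 4.57-fold. Of all genes read in that comparison, 43.3% passed. It was higher in ileal than in mature enterocyte-like cells by 5.55-, 3.46- and 4.25-fold, a comparison in which 7.92% of all genes passed. Goblet-like cells held 11.3-, 7.32- and 7.75-fold less than stem-like cells, where 37.8% of all genes passed. The step from stem-like down to early enterocyte-like cells, by 2.39-, 1.80- and 2.05-fold, just missed the rule. The clusters inside the mature class differed too: with the libraries together, the level was 11.2 in the cluster led by Slc5a12, 36.1 in that led by Fabp1 and 76.8 in that led by S100g.

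Cldn15 (chr5:136966616-136975858, + strand), the other channel claudin, was highest in mature enterocyte-like cells, where Cldn2 was low. Mature enterocyte-like cells held 426, 414 and 379 UMIs per 1000000, and early enterocyte-like cells 359, 342 and 317, with no overlap between the classes. Stem-like cells held 204, 202 and 214, and cycling-like cells 233, 221 and 209. Ileal enterocyte-like cells stood with the crypt classes at 211, 205 and 213, so that Cldn15 was lower there than in mature enterocyte-like cells, by 2.02-, 2.02- and 1.77-fold. The mature level was 2.08-, 2.05- and 1.77-fold that of stem-like cells. Both steps thus reached 2-fold in 2 of the 3 libraries and missed the rule.

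**Figure D1:**
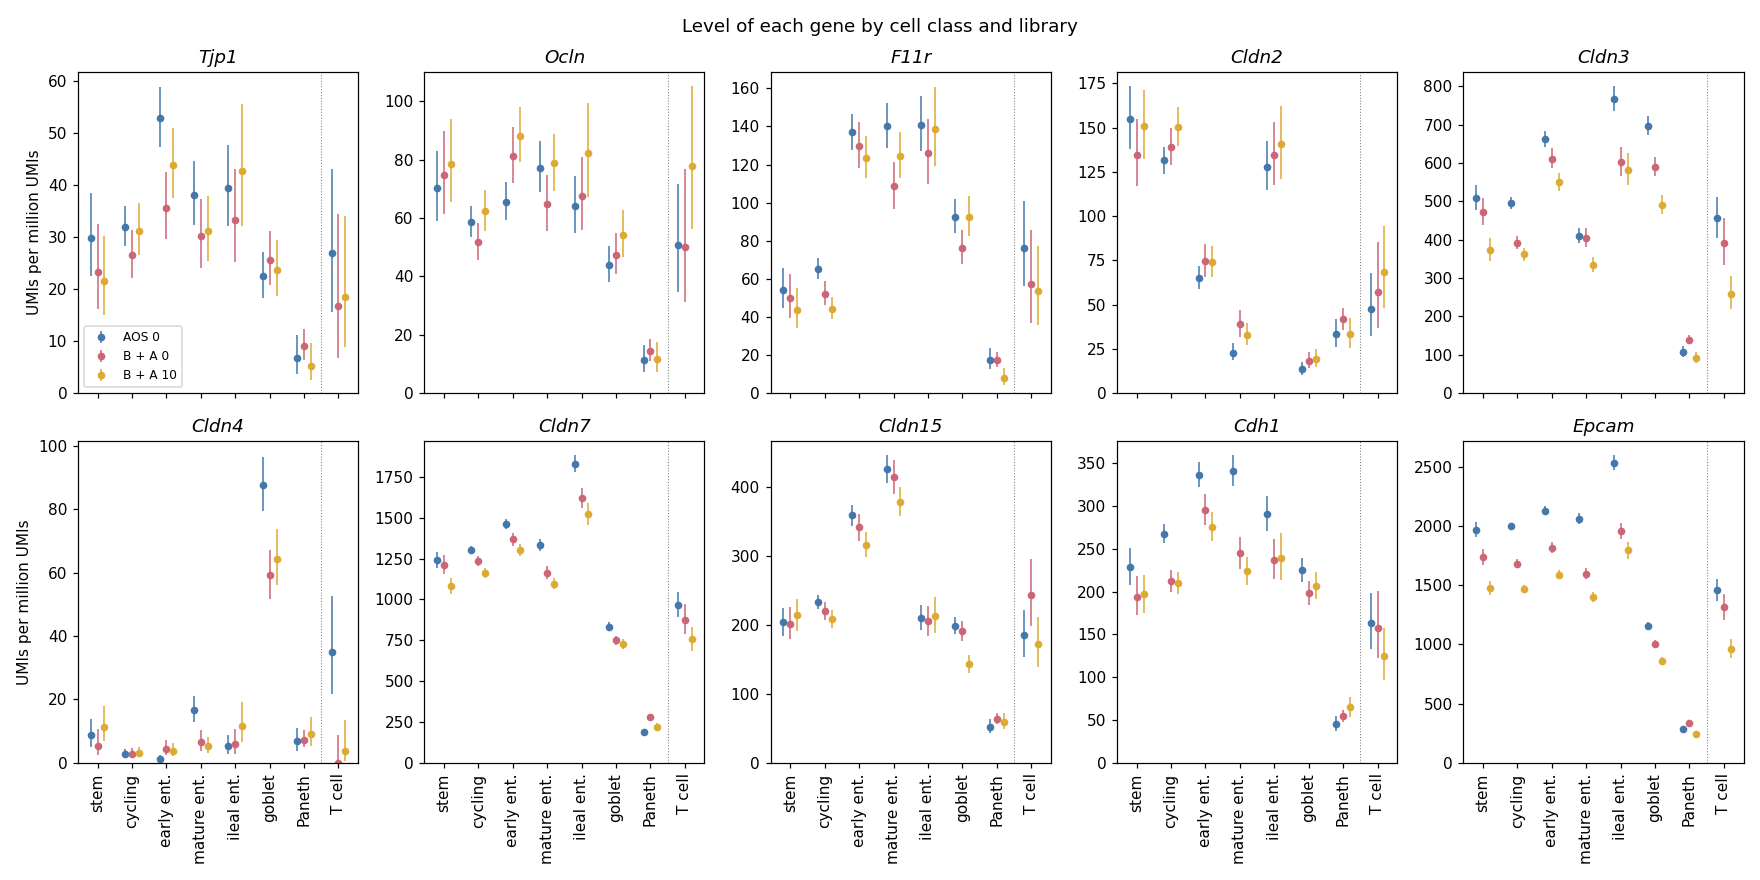
Level of each of the 10 genes (y axis, UMIs per 1000000 UMIs, linear, each panel on its own scale from 0) in the 7 classes and, right of the dotted line, in T cell-like cells. Points are the 3 libraries and bars 95% counting intervals, with Cldn2 high in stem-like, cycling-like and ileal enterocyte-like cells (128 to 155), Cldn15 in mature enterocyte-like cells (379 to 426) and Cldn4 in goblet-like cells (59.1 to 87.7).

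Cldn4 (chr5:134945119-134946934, - strand) was highest in goblet-like cells among the classes compared, which leave out enteroendocrine-like cells. In goblet-like cells AOS 0 held 87.7 UMIs per 1000000 (95% Poisson interval 79.3 to 96.6), B + A 0 held 59.1 (51.7 to 67.3) and B + A 10 held 64.5 (56.1 to 73.8). Stem-like cells held 8.72, 5.34 and 11.4, from 17, 8 and 18 UMIs, so goblet-like cells were 9.78-, 10.5- and 5.50-fold higher. In the other 6 classes every value lay between 1.31 and 16.6, below the lowest goblet-like value. Enteroendocrine-like cells, a secretory type with 154 cells outside these classes, held 122, 86.6 and 63.9. These values lay above the goblet-like ones in AOS 0 and B + A 0 and just below in B + A 10. The counting intervals of the enteroendocrine-like and goblet-like levels overlapped in each library. Paneth-like cells, also secretory, were among the 6 low classes by level, from 15, 30 and 17 UMIs. Counted per cell they held more, with a mean of 0.166 UMIs against 0.0462 in stem-like cells, place 2 after goblet-like cells.

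Inside the goblet-like class Cldn4 was uneven. The cluster led by Ido1 held 251, 142 and 145 UMIs per 1000000, that led by Ccl9 17.0, 11.5 and 16.1, and that led by Mptx1 23.4, 16.4 and 28.7. Of the 848 UMIs of Cldn4 in goblet-like cells, 700 came from the cluster led by Ido1, and the ranges of the other clusters did not reach it.

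**Figure D2:**
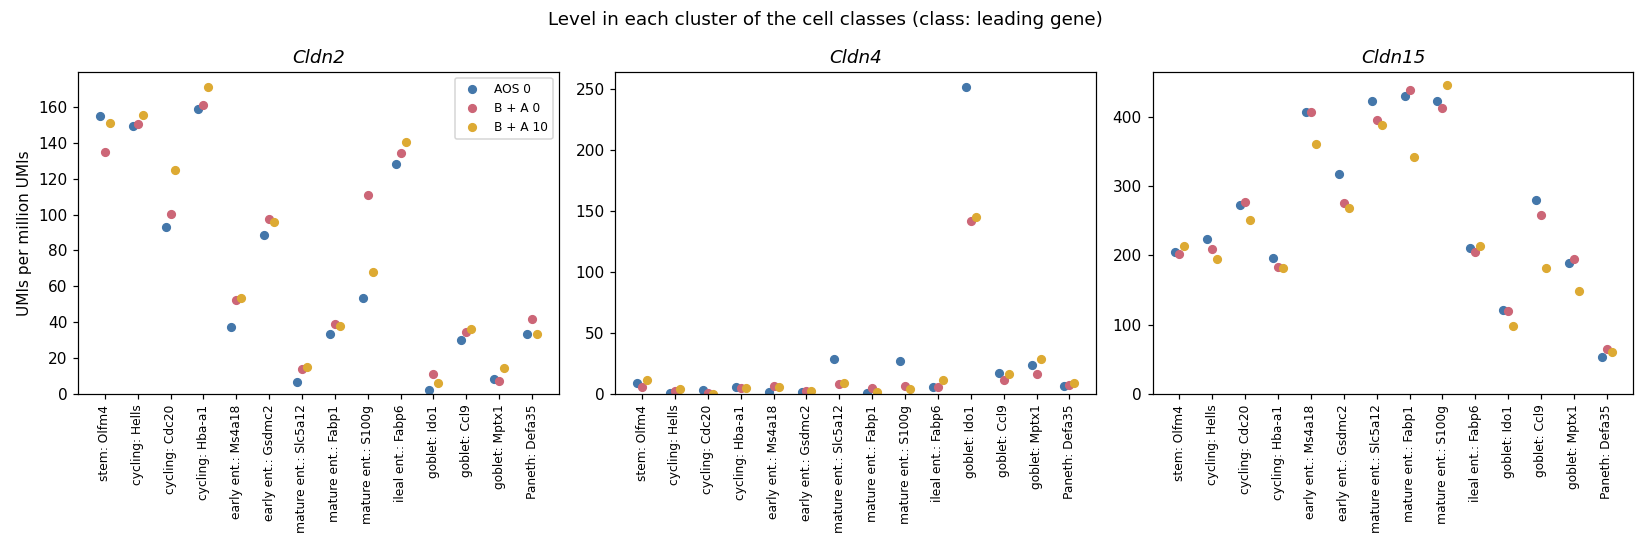
Levels (y axis, UMIs per 1000000 UMIs, linear) of Cldn2, Cldn4 and Cldn15 in the 14 clusters that make up the 7 classes (x axis, each named by class and leading gene), with 1 point per library. Cldn4 stands at 142 to 251 in the goblet-like cluster led by Ido1, and Cldn2 differs between the clusters of mature enterocyte-like cells.

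Cldn3 (chr5:134986214-134987472, + strand), next to Cldn4 on the chromosome, was spread more evenly. Its mean over the libraries ran from 651 ± 101 UMIs per 1000000 (SD, n = 3 libraries) in ileal enterocyte-like cells through 608 ± 55.9 in early enterocyte-like and 593 ± 103 in goblet-like cells to 384 ± 42.0 in mature enterocyte-like cells. Each class and the next in this order overlapped, down to Paneth-like cells at 113 ± 23.9. Cldn7 (chr11:69964779-69967885, + strand) was highest in ileal enterocyte-like cells, with 1829, 1619.5 and 1523 UMIs per 1000000, all above its values in any other class. Goblet-like cells held 832, 751 and 728 and lay below the stem-like cells, whose lowest value was 1081. Neither gene passed the rule outside Paneth-like cells.

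F11r (chr1:171437535-171464603, + strand) was higher in enterocyte-like than in crypt classes. Stem-like cells held 54.4, 50.04 and 43.8 UMIs per 1000000 and cycling-like cells 65.3, 52.2 and 44.4. Early enterocyte-like cells held 137, 129.9 and 124, which was 2.51-, 2.58- and 2.80-fold the stem-like level, and 26.7% of all genes passed that comparison. Mature enterocyte-like cells held 140.1, 109 and 124 (2.57-, 2.16- and 2.82-fold), a difference that no longer passed when libraries were not joined or when ribosomal protein, Paneth and goblet genes were left out of the scaling (mean log2 0.90). Goblet-like cells lay between these groups, at 92.6, 76.2 and 92.3, with no overlap on either side.

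Ocln (chr13:100496507-100552718, - strand) and Tjp1 (chr7:65296165-65527781, - strand) met the rule in no comparison outside Paneth-like cells. Ocln means ran from 78.4 ± 11.6 UMIs per 1000000 (SD, n = 3 libraries) in early enterocyte-like to 48.5 ± 5.25 in goblet-like cells, and the 4 highest classes overlapped. Its early enterocyte-like values (65.6 to 88.2) all lay above the goblet-like ones (43.8 to 54.2). Tjp1 means ran from 44.1 ± 8.62 in early enterocyte-like to 23.9 ± 1.57 in goblet-like cells, each class overlapping the next. The ends did not overlap, with 35.6 to 52.9 in early enterocyte-like against 21.6 to 29.7 in stem-like and 22.5 to 25.6 in goblet-like cells. Tjp1 was counted with 2499 UMIs in all, so that its smaller differences between classes were not detectable at this depth.

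Cdh1 (chr8:106603351-106670246, + strand) and Epcam (chr17:87635979-87651129, + strand) were lowest in Paneth-like cells. Cdh1 means ran from 302 ± 31.0 UMIs per 1000000 (SD, n = 3 libraries) in early enterocyte-like to 206 ± 18.9 in stem-like cells, each overlapping the next. Epcam means were 2095 ± 389 in ileal enterocyte-like and 1686 to 1846 in the early, stem-like, cycling-like and mature classes, which overlapped, and goblet-like cells lay below these with 1154, 1006 and 858. Over the 6 comparisons that did not involve Paneth-like cells the rule was met 6 times, for Cldn2, F11r and Cldn4. For early enterocyte-like over stem-like cells 1 of 9 genes read passed (26.7% of all genes). Of 10 read, 1 was higher and 1 lower in mature enterocyte-like (43.3%) and likewise in goblet-like over stem-like cells (37.8%). In ileal over mature enterocyte-like cells 1 of 10 was higher (7.92%). None of the genes met the rule between cycling-like and stem-like cells (1.36% of all genes did) or between mature and early enterocyte-like cells (11.6%).

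Paneth-like cells, which make the antimicrobial defensins, had the lowest level of 8 of the 10 genes, but this depended on the denominator. Against stem-like cells 9 of 10 genes were at least 2-fold lower in every library, as Epcam at 281, 339.9 and 239 UMIs per 1000000 against 1969.6, 1736 and 1478. Of all genes read, 81.4% passed the same rule, and the median difference of all genes was -2.10 on the log2 scale against -1.97 for the 10. The Paneth marker list alone took over 539893 of every 1000000 UMIs in these cells. Counted per cell, Paneth-like cells held 7.63, 9.08 and 3.28 UMIs of Epcam against 13.4, 11.6 and 5.62 in stem-like cells, and Cldn2, Cldn3, Cdh1 and Cldn15 were within 1.2-fold of the stem-like mean. Cldn4 was 3.59-fold the stem-like mean by that count. With ribosomal protein genes and the Paneth and goblet markers left out of the denominator, 1 of the 10 genes stayed 2-fold lower.

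T cell-like cells, taken as the comparison for background, carried these genes at a high level. Epcam stood at 1457, 1313 and 962 UMIs per 1000000 in T cell-like cells, which was 75.1% to 96.8% of its level in all other cells of the same library. For 9 of the genes the figure lay between 58.1% and 117%. Cldn4 had 22, 0 and 2 UMIs there, and the 22 UMIs of AOS 0 all came from 1 cell of 100. The 0 UMIs in B + A 0 allow a level of up to 7.18, taken as 3 UMIs over the total, while the exact interval, drawn in the plot of levels, runs to 8.82. Mature enterocyte markers stood at 112% to 149% of their level in all other cells, goblet markers at 4.43% to 12.9% and Paneth markers at 5.55% to 10.4%. The part of free RNA or of attached epithelial cells in these values was not tested. Whether T cell-like cells express any of the genes themselves was not tested either.

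Shares of cells with a UMI were compared with the 3 libraries together, after every cell was reduced to 1000 UMIs drawn at random. A share at or below the upper limit of the T cell-like share was called within background. T cell-like cells also carried mature enterocyte markers, so a share within background does not show that a gene is absent. In Paneth-like cells their own markers took most of the UMIs, which lowers the share of every other gene. Cldn2 was found in 14.8% of stem-like, 13.4% of cycling-like and 12.2% of ileal enterocyte-like cells, above the 4.78% of T cell-like cells (exact binomial interval 2.70% to 7.76%). In mature enterocyte-like cells the share was 3.08% (2.42% to 3.85%) and in goblet-like cells 1.77%, both within background. With all UMIs counted these 5 shares were 49.7%, 59.0%, 49.2%, 10.8% and 8.03%, against 17.5% in T cell-like cells. Median depth was 4206.5 UMIs in T cell-like and 3944.5 in mature enterocyte-like cells.

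Cldn4 was found in 6.74% of goblet-like cells (5.71% to 7.90%) and 0.318% of T cell-like cells (upper limit 1.76%), and the other 6 classes were within background. F11r passed the T cell-like limit of 8.14% in early (13.3%), mature (12.1%), ileal (12.5%) and, barely, goblet-like cells (8.37%). For Cldn15 only early (27.7%) and mature enterocyte-like cells (33.7%) passed the limit of 21.1%. Epcam, at 79.2% to 84.5% in the crypt and enterocyte-like classes and 61.4% in goblet-like cells, passed its limit of 61.0%. Over the 10 genes and 7 classes, 33 of 70 shares were at or below the limit. Tjp1 was above its limit of 3.68% in early (4.16%, 3.36% to 5.07%) and ileal enterocyte-like cells (4.13%, 2.89% to 5.70%) only. Both intervals included the limit. By library the early shares were 5.13%, 1.78% and 4.65%, and the ileal ones 4.93%, 2.28% and 4.63%.

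**Figure D3:**
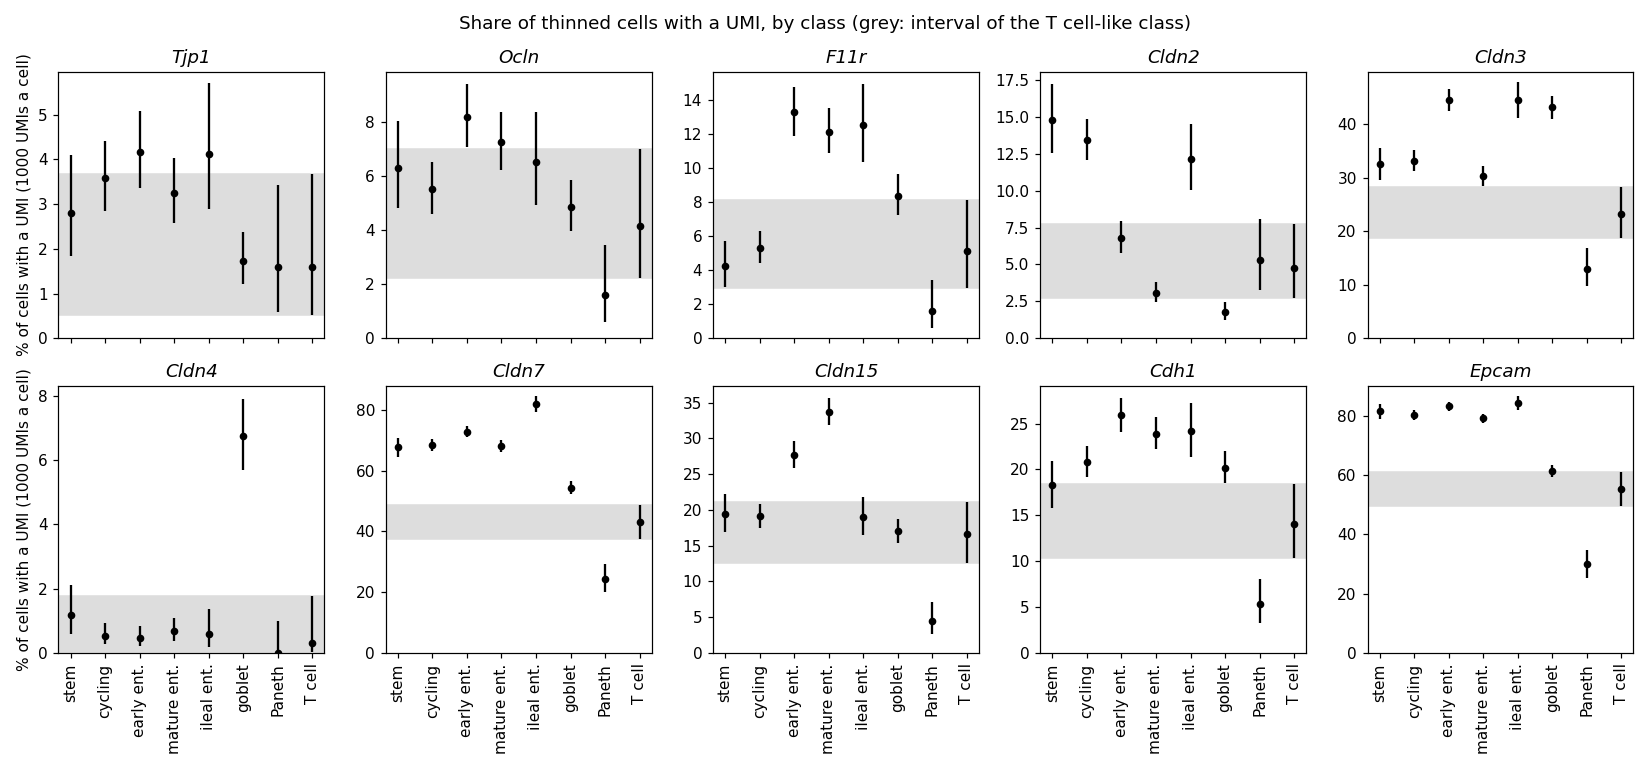
Share of cells with at least 1 UMI of each gene (y axis, %, from 0) after every cell was reduced to 1000 UMIs, by class with the 3 libraries together; bars are 95% exact binomial intervals and the grey band that of the T cell-like class. Cldn2 stands above the band in stem-like, cycling-like and ileal enterocyte-like cells and Cldn4 in goblet-like cells (6.74%), while Paneth-like cells lie within or below it for all 10 genes.

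Between libraries the ratios within a class were mostly small. A ratio was read with at least 100 UMIs in both libraries together and was past the fold at 1.5 in either direction. For B + A 0 over AOS 0, 1 of 61 member ratios read was past the fold (1.64%), against 6.18% of all pairs of a gene and a class. For B + A 10 over B + A 0 it was 1 of 60 (1.67%), against 3.70%. The B + A 0 library is in both comparisons. Counting intervals lay wholly below no difference for 26 of the 61 ratios and above it for 5, where 14.4% and 11.1% of all pairs did. For B + A 10 over B + A 0 the counts were 21 and 3 of 60, against 11.5% and 9.56%. Counting intervals narrow as UMIs rise, and the 10 rank from place 118 (Epcam) to 5443 (Cldn4) by UMIs among 13891 genes. The widths of their intervals were not compared with those of the other pairs read.

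Epcam was lower in B + A 0 than in AOS 0 in each of the 6 classes other than Paneth-like, and lower again in B + A 10 in all 7. Mature enterocyte-like cells held 2062, 1596 and 1398 UMIs per 1000000. The log2 ratio of B + A 0 over AOS 0 there was -0.37 (95% interval -0.42 to -0.32), and that of B + A 10 over B + A 0 was -0.19 (-0.25 to -0.13). Outside Paneth-like cells the first ratio lay between -0.37 and -0.18 and the second between -0.23 and -0.13, beside medians of all genes of -0.076 to -0.026 and -0.027 to 0.047. No ratio of Epcam reached 1.5-fold. The depth of the libraries fell in the same order in all 7 classes, and so did Epcam in T cell-like cells. Markers of other cell types moved too. Over the stem-like, cycling-like and 3 enterocyte-like classes the summed T cell list stood at 132 to 209 UMIs per 1000000 in AOS 0, at 510.4 to 639 in B + A 0 and at 676 to 854 in B + A 10, and was higher at both steps in 5 of 5 classes. The goblet list there stood at 2831 to 3643, 5920.2 to 11119 and 5738 to 11707, and the Paneth list at 2102 to 3545, 5155 to 6540.0 and 3586 to 5115. Their part in the ratios was not tested. Among cells of 3000 to 8000 UMIs, whose median depths were 5652, 5573 and 4089.5, Epcam was still lower in 6 of 7 classes for B + A 0 over AOS 0 and in 7 of 7 for B + A 10 over B + A 0, with medians of -0.21 and -0.24.

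Cdh1 was lower in B + A 0 than in AOS 0 in the same 6 classes, with intervals below 0 in all 6, with ratios on both sides of 0 for B + A 10 over B + A 0. Mature enterocyte-like cells held 341, 245 and 224 UMIs per 1000000, with a log2 ratio of -0.48 (-0.61 to -0.34) for B + A 0 over AOS 0 and -0.13 (-0.28 to 0.02) for B + A 10 over B + A 0. B + A 10 over AOS 0 was -0.61 (-0.74 to -0.48), past the fold, as were 6.44% of all genes in these cells. Over the 7 classes the ratios of B + A 10 over B + A 0 ran from -0.13 to 0.25, and 0 of 7 intervals excluded no difference.

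Among the claudins, Cldn3 was lower in B + A 10 than in B + A 0 in all 7 classes, with 6 of 7 intervals below 0. Its values in stem-like cells were 509, 473 and 374 UMIs per 1000000, a log2 ratio of -0.34 (-0.50 to -0.18) for the second step. The 1 ratio past the fold was in Paneth-like cells, which held 107, 139 and 92.1, for a log2 ratio of -0.59 (-0.85 to -0.35) of B + A 10 over B + A 0. It passed the fold and the minimum of UMIs under 3 of 11 alternatives and was as small as -0.29 with thinned cells. The share of Paneth-like cells with a UMI of Cldn3 (13.0%) was within the T cell-like background, but it depends on the same denominator as the levels. Counted per cell, Paneth-like cells held 2.91, 3.71 and 1.26 UMIs of Cldn3 against 2.88, 2.65 and 0.92 in T cell-like cells. Background and expression are not told apart here, and the ratio is not read as a change in expression. In Paneth-like cells 11.9% of all genes passed that fold, and the median of all genes was -0.25. For B + A 0 over AOS 0 in Paneth-like cells 31.9% of all genes passed and the median was 0.40. The ratio of 0.37 for Cldn3 there stood near that shift, and that of 0.57 for Cldn7 stood above it, short of the fold. Cldn7 was otherwise lower in B + A 0 in the 6 other classes, by -0.19 to -0.03. Among cells of 3000 to 8000 UMIs, Cldn3 was lower in B + A 10 than in B + A 0 in 6 of 7 classes.

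Cldn2 gave the 1 ratio past the fold for B + A 0 over AOS 0, in mature enterocyte-like cells. They held 23.0 UMIs per 1000000 in AOS 0 (93 UMIs), 38.8 in B + A 0 (108 UMIs) and 33.0 in B + A 10 (109 UMIs). The ratio of B + A 0 over AOS 0 was 1.69 (log2 0.76, 0.34 to 1.17), and 4.49% of all genes passed the fold in these cells. As shown above, the share of these cells with a UMI of Cldn2 was within the T cell-like background. T cell-like cells carried mature enterocyte markers at 112% to 149% of their level elsewhere, so this limit cannot tell background from expression here. The ratio stayed past the fold under 11 of 11 alternatives, of which 9 met the minimum of UMIs. It is given as a value and not read as a change in expression. Over the 3 clusters of the class the levels of AOS 0 and B + A 0 were 6.38 and 14.1 UMIs per 1000000 in that led by Slc5a12, 33.2 and 38.8 in that led by Fabp1 and 53.6 and 111 in that led by S100g. None of these 3 reached the 100 UMIs at which a ratio was read, and the cluster led by S100g made up 10.99% of the class in AOS 0 and 15.2% in B + A 0. In the classes where Cldn2 was high, the log2 ratios were -0.20 in stem-like, 0.08 in cycling-like and 0.07 in ileal enterocyte-like cells, with intervals that included 0.

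Cldn4 was read in goblet-like cells only, where neither ratio passed the fold. The log2 ratio of B + A 0 over AOS 0 was -0.57 (-0.81 to -0.33) and that of B + A 10 over B + A 0 was 0.12 (-0.15 to 0.40). In the goblet-like cluster led by Ido1, which held 32.9%, 38.9% and 38.6% of the cells of the class, the first ratio was -0.83 (-1.09 to -0.57), from 339 and 195 UMIs. Over the clusters of the 7 classes, 5 of 113 member ratios were past the fold for B + A 0 over AOS 0 (4.42%), against 6.58% of all pairs of a gene and a cluster. The second comparison gave 2 of 107 (1.87%), against 4.06%.

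Tjp1 in early enterocyte-like cells held 52.9, 35.6 and 43.8 UMIs per 1000000 from 324, 124 and 171 UMIs. The log2 ratio of B + A 0 over AOS 0 was -0.57 (-0.88 to -0.27) and that of B + A 10 over B + A 0 was 0.30 (-0.04 to 0.64). Ocln was higher in B + A 10 than in AOS 0 in 7 of 7 classes, by 0.03 to 0.43, with 2 intervals above 0, but among cells of 3000 to 8000 UMIs it was lower in 2 of the 6 classes with a value. Early enterocyte-like cells held 65.6, 81.3 and 88.2, for a log2 ratio of 0.31 (0.09 to 0.53) of B + A 0 over AOS 0. F11r was lower in B + A 0 than in AOS 0 in 7 of 7 classes, by -0.37 to -0.01, with 3 intervals below 0. In cells of 3000 to 8000 UMIs it was lower in 5 of 7.

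**Figure D4:**
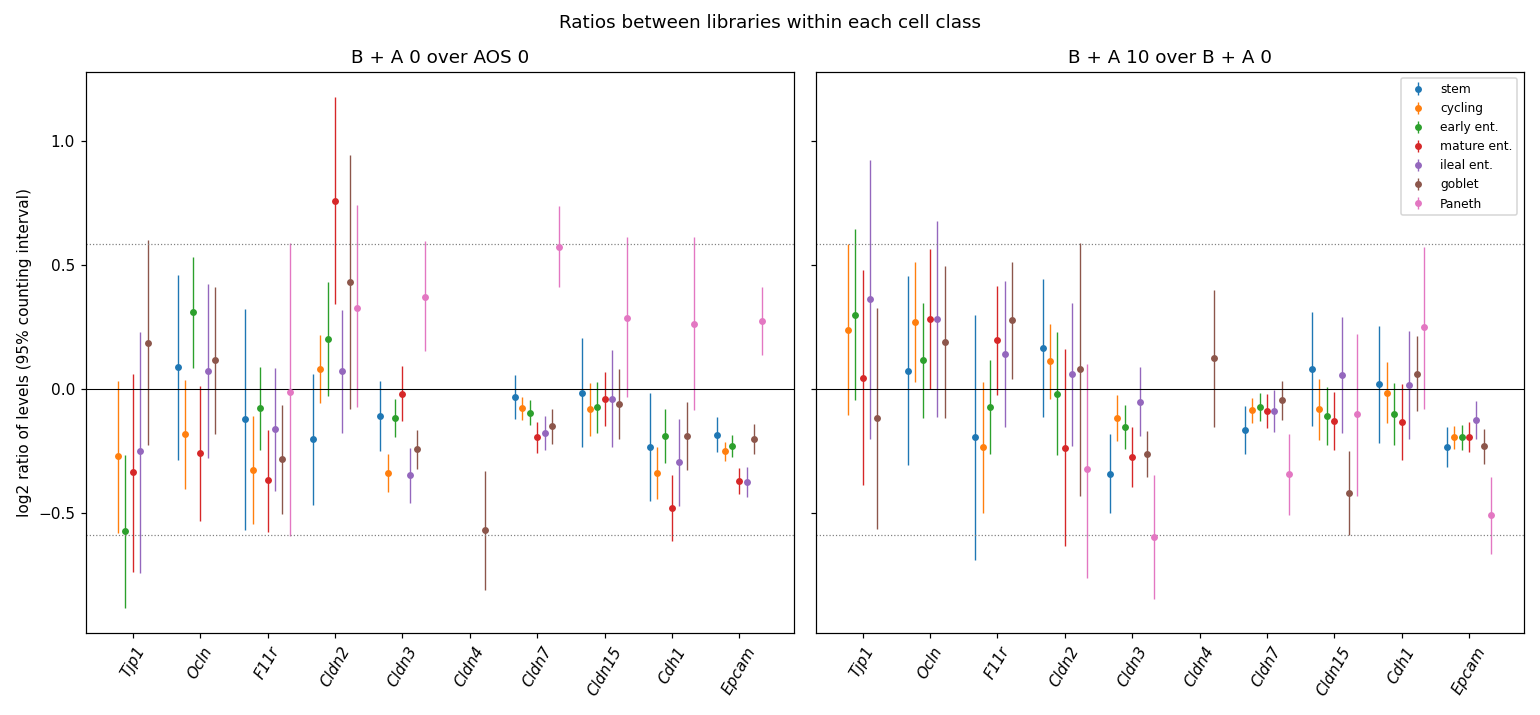
Log2 ratios between libraries (y axis) of each gene (x axis) in the 7 classes (colours), for B + A 0 over AOS 0 on the left and B + A 10 over B + A 0 on the right, where at least 100 UMIs were counted; bars are 95% counting intervals and dotted lines 1.5-fold. Epcam lies below 0 in 6 of 7 classes on the left and in 7 of 7 on the right, and only Cldn2 in mature enterocyte-like cells (left) and Cldn3 in Paneth-like cells (right) pass the fold.

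Summed over whole libraries, all 10 genes were lower in B + A 0 than in AOS 0, with a median log2 ratio of -0.33, but 81.6% of all genes were lower too and their median was -0.18. For B + A 10 over B + A 0, 2 of 10 genes were lower, beside 32.7% of all genes. Paneth-like cells, rich in UMIs, made up 1.997%, 4.91% and 2.58% of the cells. With the same weight for each class in every library, 8 of 10 genes were lower in B + A 0 than in AOS 0, beside 58.4% of all genes. Under these weights 5 of 10 were lower in B + A 10 than in B + A 0, beside 51.1%.

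Of the other junction genes, 54 were in the table: 27 of the tight junction, 11 of the adherens junction, 6 of the desmosome, 4 of the gap junction and 6 that encode partners of EpCAM. Between mature enterocyte-like and stem-like cells 7 of 44 read were higher and 7 lower, against the 43.3% of all genes. Cdh17, an intestinal cadherin, was higher, at 1087, 1036 and 1094 UMIs per 1000000 in mature enterocyte-like against 192, 200.1 and 217 in stem-like cells. Ybx3, a factor bound by Tjp1 at the junction, was lower, at 20.3, 21.6 and 21.5 against 154, 181.5 and 199.9. Tspan8, a tetraspanin that binds EpCAM, held 1906, 1775 and 1785 in goblet-like cells, and its 403, 406 and 381 in mature enterocyte-like cells passed the rule as lower than in stem-like cells. Cycling-like and stem-like cells differed in 0 of 44.

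Lsr, which marks the corners where 3 cells meet, held 270.3, 210.5 and 189 UMIs per 1000000 in goblet-like cells and 116, 114 and 105 in mature enterocyte-like cells. Ctnnb1 (beta-catenin), which links E-cadherin to actin, held 415, 400.4 and 414 in mature enterocyte-like cells. The desmosome genes Dsp and Dsg2 held 199, 204 and 209.8 and 168, 156 and 184 there. Gjb1 and Gjb2, connexins of gap junctions, held 52.8, 36.7 and 33.0 and 22.0, 21.3 and 16.5 in stem-like cells, with Gjb2 lower in mature enterocyte-like cells at 7.16, 4.68 and 5.75. Spint2, a protease inhibitor that protects EpCAM, held 1753, 1460.4 and 1319 in goblet-like cells.

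**Figure D5:**
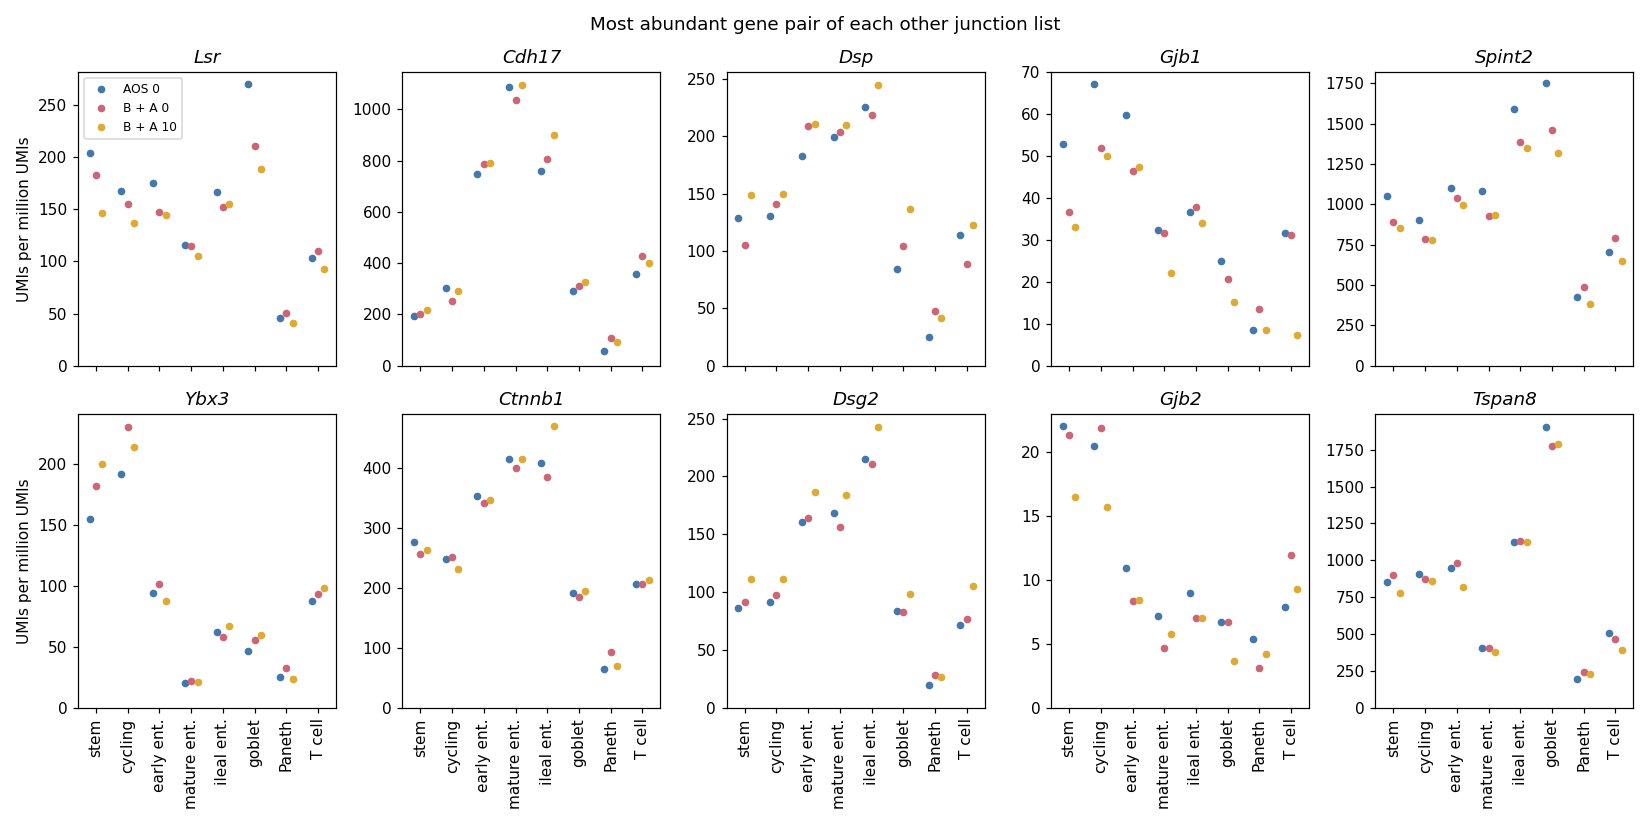
Level (y axis, UMIs per 1000000 UMIs, linear, each panel on its own scale from 0) of the pair of genes with most UMIs in each list of other junction genes, by class and library, with 1 point per library. Cdh17 is high in mature enterocyte-like cells (1036 to 1094) and low in stem-like cells (192 to 217), and Ybx3 has the reverse order.

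Between libraries, 11 of 237 ratios of these genes were past 1.5-fold for B + A 0 over AOS 0, 7 of them in Paneth-like cells, and 10 of 222 for B + A 10 over B + A 0. These shares stand beside the 6.18% and 3.70% of all pairs given above. In Paneth-like cells the 7 were of 18 read, where 31.9% of all genes passed the fold. Of the 719 genes past it there, 707 were higher in B + A 0. The 7 were Crb3, Ctnnd1, Nectin2, Cdh17, Dsp, Spint1 and St14, all higher in B + A 0, with log2 ratios of 0.67 to 1.38 beside the median of 0.40 for all genes. Mpp5 in mature enterocyte-like and Pkp2 in ileal enterocyte-like cells were lower in B + A 0, at -0.60 and -1.06. For B + A 10 over B + A 0, Pard3 and Cgn were higher in mature and ileal enterocyte-like cells, at 0.66 and 0.59, and Marveld2, Nectin1 and Pkp2 in cycling-like, Cd9 in early and Marveld3 in ileal enterocyte-like cells lower, at -0.60 to -1.02. Crb3 and St14 in Paneth-like cells were lower as well, at -0.96 and -0.63, which was 2 of 18 read, where 11.9% of all genes passed.

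The genes most like each of the 10 were found by the correlation of log2(level + 10) over the 7 classes in the 3 libraries, 21 points that share libraries and total scaling, among 9296 genes with at least 300 UMIs. Cldn7 and Epcam were each the other's closest gene, with r = 0.989, and r = 0.944 over 18 points without Paneth-like cells. F11r was closest to Cxadr (r = 0.984), another junction receptor of the same family, then to Ralgps2 and Chmp2b. Cldn2 was closest to Fgfbp1 (0.951), Rbms1 and Add3, Cldn4 to Myof (0.949), Plaur and Bcas1, and Cldn15 to Plekha8 (0.984), Gstt3 and Fbxo34. For Tjp1 (BC031181, Coro1b, Ostf1), Ocln (Ywhab, Fbxo38, Rhoa), Cdh1 (Cdc42ep5, Pfn1, Arpc1a) and Cldn3 (Gmds, 1110059E24Rik, Gnb2) the values were 0.962 to 0.980, and 0.732 to 0.916 without Paneth-like cells. Arpc1b and Nckap1 followed for Cldn7, and Arpc1b and Tmod3 for Epcam. Between Cldn2 and Cldn4 the value was -0.66, the lowest of the pairs among the 10.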

How the data were processed

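Single-cell RNA was captured by the 10x 3′ method. The authors aligned the reads to mm10 with Cell Ranger 2.2.0 with the number of cells forced to 5000, removed cells with fewer than 200 genes and genes in fewer than 3 cells, and deposited, per the methods, natural log values of 1 plus UMIs per 10000 of the cell. The B + A 10 library held 5352 cells, more than the stated 5000, for a reason that is not known. Whole UMIs were recovered from 100% of 24333763 values above 0, within 0.01 of a UMI. Cells were clustered with Seurat 5.3.0 (libraries joined by canonical correlation anchors, 2000 variable genes without the 10 members and the junction lists, 20 dimensions, resolution 0.8) and clusters named from the marker list with the highest mean fold, with at least 3 markers up 2-fold. Clusters with over 20% called doublets (the highest 5% of Scrublet scores in each library, 597 cells, otherwise kept) or with markers of several lineages were not named. This naming rule was set after the clusters were seen. A level is the UMIs of a gene over all UMIs of a class and library, with an exact Poisson interval, and ratios carry exact binomial intervals, all 95%. With 1 library per group no test was made. The lowest depth, 3505 UMIs per cell (median), limits genes such as Tjp1 and Cldn4. The genes named are the 10, the 2 genes of each junction list with most UMIs, the list genes past 1.5-fold in a class, except for results not reported here, and the 3 genes most like each of the 10. The members and lists were chosen with earlier results of these data known. Alternatives were other clusterings, filters, scalings and thinned cells. Gene positions are from GENCODE M21 (GRCm38). Of 134 marker genes 126 were in the table.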

Additional observations from a re-analysis of the deposited data

How the results depend on the processing

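Of the 6 differences between classes outside Paneth-like cells, 5 (Cldn2 in 3 comparisons, Cldn4 in goblet-like and F11r in early enterocyte-like over stem-like cells) passed the rule under every alternative run, and the number of differences ran from 5 to 8. F11r in mature enterocyte-like over stem-like cells no longer passed the rule when libraries were not joined (log2 1.33) or when ribosomal protein, Paneth and goblet genes were left out of the scaling (0.90). For Paneth-like over stem-like cells, 9 of the 10 genes passed, against 1 with that scaling, 5 with thinned cells and 3 in cells of 3000 to 8000 UMIs. The 1 ratio of B + A 0 over AOS 0 past 1.5-fold became 2 at resolution 0.4, 2 at resolution 1.5, 3 without called doublets, 2 with the mean over cells, 3 in cells of 3000 to 8000 UMIs and 5 over single clusters, and 0 with thinned cells or with at least 300 UMIs. The 1 ratio of B + A 10 over B + A 0 became 0 at resolution 0.4, with at least 500 genes, with the mean over cells, with that scaling and in cells of 3000 to 8000 UMIs, where it was -0.62 but had fewer than 100 UMIs, and 2 over single clusters. The genes lower over the whole library in B + A 10 than in B + A 0 rose from 2 to 5 with equal weight for each class. Shares at or below the T cell-like limit fell from 33 to 11 with all UMIs of a cell. The causes were not tested, except that higher minimums and thinning leave fewer ratios to read (51 and 35 for B + A 0 over AOS 0, against 61).

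Over all alternatives Epcam stayed below 0 outside Paneth-like cells in each comparison, between -0.70 and -0.05, and in Paneth-like cells B + A 0 over AOS 0 ran from -0.03 to 0.30. Cldn2 in mature enterocyte-like cells ran from 0.68 to 1.15. The cells of 3000 to 8000 UMIs, the clusters taken singly and the doublet-rich clusters kept were chosen after seeing the data. No paired analysis was possible because each group had 1 library and no result came from a test. Depth limits Tjp1 and Cldn4 most.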
